A study of Homo sapiens with 12 samples.

Results

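The genes described here are 10 genes of the CCN family and of the YAP/TEAD pathway, namely CCN1, CCN2, CCN3, CCN4, ANKRD1, AMOTL2, AJUBA, LATS2, TEAD1 and YAP1. They were taken by gene symbol from a count table of 44659 genes, and each symbol matched 1 row. The genes were picked with earlier results of these libraries in view. Which measured values the genes were chosen by is not recorded. CCN4 had already been named for its level in treated cells against control cells, so it is treated here as selected on that difference, and its levels are given as a description with no test. The other genes were tested, and their p-values take no account of how they were chosen. The gene lists set beside them below were also chosen with earlier results of these data known. Counts and p-values of those lists take no account of that either.

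CCN proteins are secreted matricellular proteins: they sit in the extracellular matrix, bind integrins and low-density lipoprotein receptor-related proteins, and modulate adhesion and growth factor signalling. YAP, encoded by YAP1, is a transcriptional coactivator that binds DNA through the TEAD factors, and CCN1, CCN2, ANKRD1, AMOTL2, AJUBA and LATS2 are commonly used as readouts of that complex. The Hippo kinases, with the LATS kinases as their last step, phosphorylate YAP and its paralogue TAZ and keep them out of the nucleus. LATS2, AMOTL2 and AJUBA are at the same time targets and regulators of the pathway. In melanoma, YAP and TEAD activity has been linked to tolerance of inhibitors of the MAPK pathway.

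The cells were A375, an established human melanoma line with an activating BRAF mutation, grown in glutamine-supplemented DMEM with serum. Control cells (CC) received DMSO for 72 h, and treated cells (TC) received MAPKi, a mix of 500 nM vemurafenib (a BRAF inhibitor) and 500 nM cobimetinib (a MEK inhibitor), for 72 h. Persister cells (PC) received the same 72 h of MAPKi and were then kept without drug for 2 days, while recovered cells (RC) had 9 drug-free days after the same treatment. Each group had 3 libraries, 12 in all, from 1 cell line, made after rRNA depletion. The labels call the RNA cytoplasmic and the methods of the study call it total, and which holds for these libraries is not settled here. Drug-free controls matched to the PC and RC harvest days were not analysed here. The harvest day therefore cannot be told apart from the group in any comparison with PC or RC. Nothing in the labels says whether the 3 libraries of a group came from separate cultures, so p-values measure the spread between these libraries, which may be technical. Because RNA was measured in bulk, a smaller share of cells expressing a gene and less RNA per cell cannot be told apart.

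The libraries held between 37773389 and 55567097 counts. Levels are given as CPM (counts scaled by the total of the library), and differences as log2 fold changes from edgeR's quasi-likelihood test with Benjamini-Hochberg adjustment over all 15916 genes tested. A gene was called at an adjusted p under 0.05, and called beyond 1.5-fold when edgeR's test against a 1.5-fold threshold also passed. The MAPK output genes DUSP6, SPRY4 and ETV4, which encode a phosphatase of ERK, a feedback inhibitor and a transcription factor, fell in TC (log2 fold changes of -5.32, -8.06 and -6.49) and in PC (-4.90, -9.10 and -7.07). In RC, DUSP6 and ETV4 differed from CC by -0.22 and -0.02 (adjusted p = 0.7 and 0.89), and SPRY4 was lower by -0.76 (adjusted p = 0.042). The CC libraries were uneven for DUSP6 (77.6 to 297 CPM) and SPRY4 (270 to 720 CPM). For SPRY4 they overlapped with the RC libraries (249 to 285 CPM). All 8 melanocyte lineage markers were detected in every group, with summed levels of 1665 to 1892 CPM in CC, 7093 to 10309 in TC, 3496 to 5107 in PC and 1528 to 1594 in RC. Of 8 fibroblast markers, 4 reached 10 counts in each group, COL3A1 and THY1 were at 0, and the sum ran from 48.48 to 61.71 CPM in CC, 79.03 to 104.9 in TC, 35.44 to 47.5 in PC and 43.68 to 47.54 in RC. These sums hide opposite changes. In TC, FAP (2.09, adjusted p = 6.2e-07) and PDGFRB (0.68, adjusted p = 0.012) were higher and LUM lower (-2.04, adjusted p = 5.2e-08). In PC, COL1A1 was higher (2.70, adjusted p = 0.00015) and LUM lower (-2.05, adjusted p = 4.9e-08). The 3 endothelial markers summed to at most 5.231 CPM in any library, with CDH5 at 0, and VWF fell in TC (-0.99, adjusted p = 0.00046) and in PC (-1.25, adjusted p = 7.2e-05). The 3 leukocyte markers summed to 0.5675 to 0.8253 CPM in CC, 0.0511 to 0.1679 in TC, 0.1308 to 0.2607 in PC and 0.4539 to 0.7476 in RC, and PTPRC fell in TC (-3.55, adjusted p = 0.00012) and in PC (-1.96, adjusted p = 0.0029). The 3 keratinocyte markers summed to at most 0.04518 CPM in CC, 0.2611 to 0.5441 in TC, 1.955 to 2.636 in PC and at most 0.04924 in RC, with KRT1 at 0, and KRT14 rose from a mean of 0.0151 CPM in CC to 0.396 in TC (adjusted p = 0.00045) and 2.29 in PC (adjusted p = 4.9e-06). KRT14, with 2 counts over the CC libraries, passed the filter for testing only through TC and PC. PTPRC, with 6 counts over the TC libraries, passed it only through CC and RC. The p-values of both take no account of this. The part of these marker changes in the results below was not tested.

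Short promoter stretches of the genes are shown because a recognition sequence of TEAD factors, GGAATG, can be read in them directly. RefSeq start-site sequences (250 bases before to 50 bases after each start, GRCh38.p14) were held for 6 of the 10 genes, at 8 starts. Only the 250 bases before each start were searched, and these bases are called the window here. No window was held for CCN1, CCN3, CCN4 or TEAD1. GGAATG was searched on both strands, and 5 of the 8 windows held it, against 11.9% of all 35116 windows. Each stretch below is printed 5′ to 3′ on the strand of its gene, with GGAATG, or its reverse complement CATTCC, in capitals. CCN2 held 3 copies, 169, 104 and 95 bases before its start, within chr6:131951450-131951553 on the minus strand. ANKRD1 held 2 copies, 220 and 128 bases before its start, within chr10:90921198-90921319 on the minus strand. Of 2 start sites of AMOTL2, the second held 1 copy on the opposite strand at position -69, within chr3:134374499-134374528 on the minus strand. Of 2 start sites of AJUBA, the second held 1 copy at position -59, within chr14:22976884-22976913 on the minus strand. YAP1 held 1 copy at position -162, within chr11:102110273-102110302 on the plus strand.
CCN2: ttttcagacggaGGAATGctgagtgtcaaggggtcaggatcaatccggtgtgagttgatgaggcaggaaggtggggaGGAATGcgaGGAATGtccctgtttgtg
ANKRD1: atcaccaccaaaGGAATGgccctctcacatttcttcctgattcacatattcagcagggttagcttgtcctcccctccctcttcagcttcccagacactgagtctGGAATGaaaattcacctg
AMOTL2: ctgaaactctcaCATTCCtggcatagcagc
AJUBA: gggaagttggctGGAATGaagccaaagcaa
YAP1: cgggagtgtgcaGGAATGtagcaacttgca

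The LATS2 window held no GGAATG. The AP-1 sequence TGANTCA, searched on both strands, was found in 1 of the 8 windows (that of ANKRD1), against 6.57% of all windows. The CArG box, bound by serum response factor, was found in 0 of the 8 windows, against 1.16% of all windows. A match says only that these letters are in the window, and no binding was measured here.

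Of the 4 CCN genes, CCN3 reached the highest level in TC and PC per kilobase of exon. CCN3 (chr8:119416446-119424434, plus strand, GRCh38, as are all gene coordinates given here) encodes a CCN protein that limits growth in several cell types and mediates adhesion of melanocytes. Its level was 24.85, 27.06 and 25.12 CPM in the CC libraries, 3993, 4398 and 4200 in the TC libraries, 2426, 2677 and 2575 in the PC libraries and 73.07, 68.05 and 62.24 in the RC libraries. The 4 groups did not overlap: every TC library lay above every PC library, every PC library above every RC library, and every RC library above every CC library. CCN3 rose in TC by 7.35 ± 0.09 (log2 fold change ± SE, 163-fold, adjusted p = 2.3e-13) and was still higher than CC by 6.64 ± 0.09 in PC (99.7-fold, adjusted p = 5.3e-13). It was lower in PC than in TC by -0.71 ± 0.07 (1.64-fold, adjusted p = 2.2e-05), which was not called beyond 1.5-fold. From PC to RC it fell 37.8-fold (-5.24 ± 0.08, adjusted p = 1.9e-12), and in RC it was still 2.64-fold above CC (1.40 ± 0.07, adjusted p = 2e-06), a difference called beyond 1.5-fold. Per kilobase of exon, CCN3 ranked 4163 of 13962 genes in CC, 5 in TC, 8 in PC and 1729 in RC. The summed melanocyte lineage markers were also higher in TC and PC than in CC, but in RC their sum was below the CC range while CCN3 was above it. In TC and PC most of the sum was DCT, at means of 6452 and 2601 CPM. In CC and RC, DCT stood at means of 407 and 421 CPM, below SOX10 at 659 and 552.5. Of the 8 markers, 6 were called higher and 1 lower in TC and in PC alike, the lower one being S100B in TC (-0.91, adjusted p = 2.2e-06) and MITF in PC (-0.71, adjusted p = 0.023).

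CCN4 (WISP1, chr8:133191039-133231690, plus strand), a WNT-inducible member of the family, was not detected in CC and was the least even of the 10 genes among the TC libraries. All 3 CC libraries had 0 counts, which allows up to 3 counts per library, or 0.0684 CPM. The TC libraries had 71, 340 and 1354 counts, or 1.84, 8.69 and 25.3 CPM, so that the highest and the lowest TC library were far apart. The PC libraries had 304, 428 and 443 counts, or 7.95, 9.30 and 10.2 CPM, all inside the TC range. The RC libraries had 1, 1 and 0 counts. Against the floor, the mean level was at least 174-fold higher in TC than in CC, or at least 76.9-fold without TC replicate 3, and at least 134-fold higher in PC. The pooled level in PC was 690 times that in RC (95% interval 190.5 to 5702, exact, counting error only).

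CCN1 (CYR61, chr1:85580761-85584589, plus strand) encodes an integrin-binding matrix protein induced early after growth factor stimulation. Its level was 14.9, 17.6 and 25.9 CPM in the CC libraries, 40.4, 54.7 and 89.1 in the TC libraries, 101, 105 and 109 in the PC libraries and 18.0, 17.2 and 19.9 in the RC libraries. Every TC library lay above every CC library and below every PC library, while the RC libraries lay inside the CC range. CCN1 rose 3.15-fold in TC (1.66 ± 0.25, adjusted p = 9.1e-05) and 5.38-fold in PC (2.43 ± 0.26, adjusted p = 3.8e-06), both beyond 1.5-fold. Without TC replicate 3, the highest TC library, the TC difference was 1.29 (adjusted p = 0.00013). PC was higher than TC by 0.77 ± 0.24 (adjusted p = 0.037), and that call was lost in 7 of 18 alternative settings, where the difference ran from 0.55 to 0.80. From PC to RC CCN1 fell by 2.52 ± 0.26 (adjusted p = 2.7e-06), and RC differed from CC by -0.09 ± 0.25 (adjusted p = 0.82).

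CCN2 (CTGF, chr6:131948176-131951372, minus strand), connective tissue growth factor, whose window held 3 copies of GGAATG, moved less. Its level was 43.3, 50.7 and 59.8 CPM in the CC libraries, 63.7, 76.2 and 114 in the TC libraries, 70.7, 73.0 and 67.6 in the PC libraries and 46.1, 31.4 and 42.0 in the RC libraries. All TC and PC libraries lay above all CC libraries, and the RC and CC libraries overlapped. CCN2 rose 1.65-fold in TC (0.72 ± 0.20, adjusted p = 0.0062), not beyond 1.5-fold. Without TC replicate 3 the difference was 0.45 (adjusted p = 0.029). In PC the difference from CC was 0.46 ± 0.20 (adjusted p = 0.056), which missed the threshold here and passed it in 10 of 18 alternative settings. RC was lower than PC by -0.82 ± 0.20 (adjusted p = 0.0027), and its difference from CC was -0.37 ± 0.20 (adjusted p = 0.17).

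**Figure D1:**
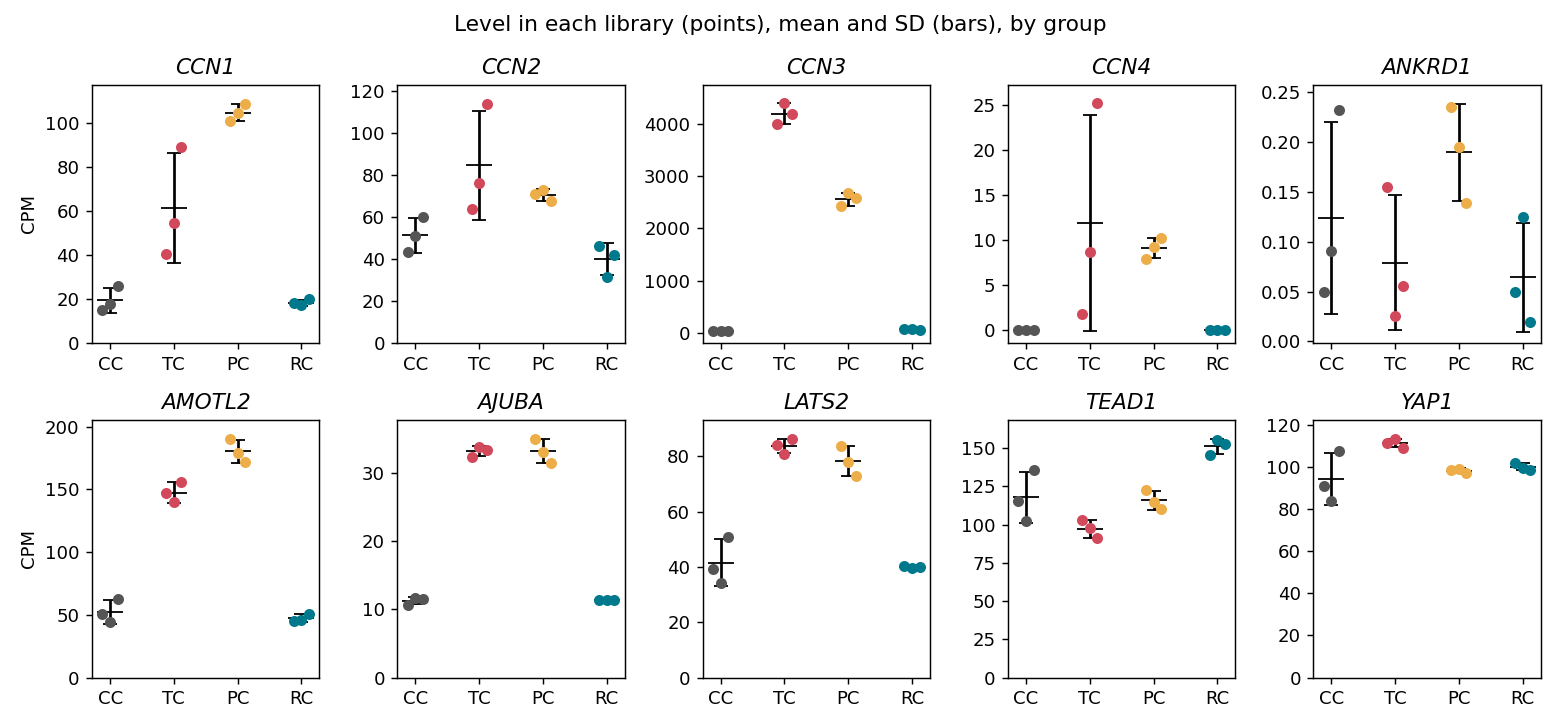
Level in CPM (vertical axis, own linear scale for each gene) of the 10 genes in each of the 12 libraries, by group (horizontal axis); points are libraries, and bars give the mean and SD of 3 libraries. CCN3 stands between 3993 and 4398 CPM in TC against at most 27.06 in CC, and the TC libraries of CCN4 spread from 1.84 to 25.26 CPM.

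The other CCN genes gave a comparison within the family. CCN5 (WISP2), which lacks the C-terminal domain of the other members, was at 0.0755 ± 0.0085 CPM in CC (SD, n = 3), 8.81 ± 1.22 in TC, 5.70 ± 0.73 in PC and 0.0598 ± 0.0309 in RC. CCN5 rose in TC by 6.81 ± 0.28 (adjusted p = 1e-09) and in PC by 6.18 ± 0.27 (adjusted p = 2e-09), from only 10 counts in the 3 CC libraries together. CCN5 passed the filter for testing only through its TC and PC counts, which its p-values take no account of. CCN6 had 19 counts over the CC libraries, 0 over the TC libraries, 0 over the PC libraries and 6 over the RC libraries, and was below the filter for testing. On the length-scaled level (CPM per kb of exon), the order in CC was CCN2 at 21.9 ± 3.5, CCN3 at 9.82 ± 0.46 and CCN1 at 5.27 ± 1.54. In TC the order was CCN3 at 1606 ± 77, CCN2 at 36.1 ± 11.1, CCN1 at 16.6 ± 6.8, CCN4 at 2.30 ± 2.32 and CCN5 at 1.77 ± 0.24. CCN4 and CCN5 did not differ in TC beyond their spread. In PC, CCN2 at 30.1 ± 1.1 and CCN1 at 28.4 ± 1.0 were neighbours within about the spread of the libraries, below CCN3 at 979 ± 48. The order in RC was CCN3 at 25.9 ± 2.1, CCN2 at 17.04 ± 3.24 and CCN1 at 4.96 ± 0.37.

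**Figure D2:**
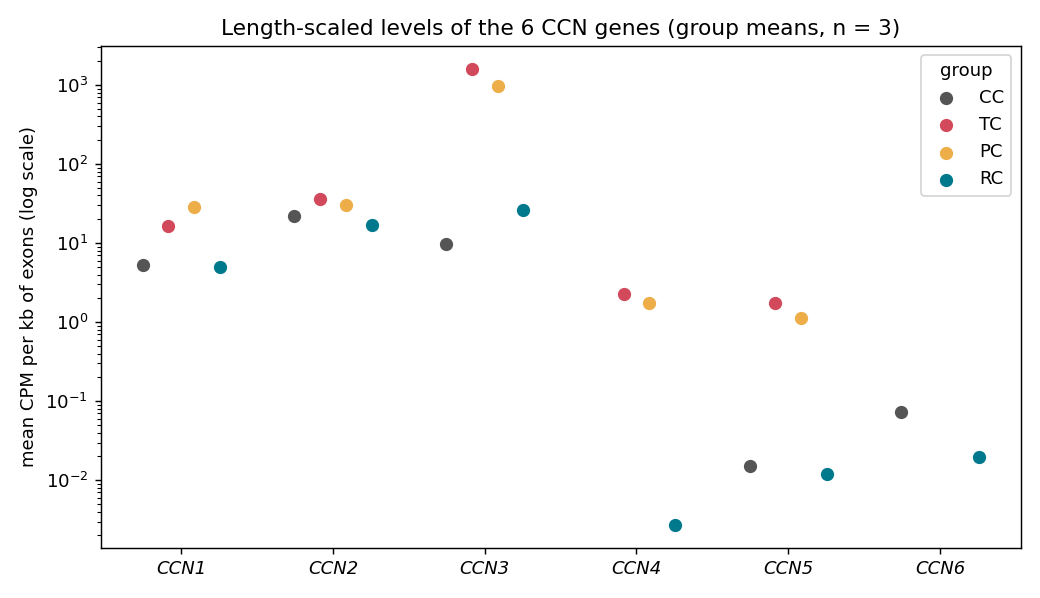
Mean level per kilobase of exon (vertical axis, CPM per kb, log scale; means of 3 libraries) of the 6 CCN genes (horizontal axis) in the 4 groups; a mean of 0 cannot be drawn on a log scale and has no point. CCN3 reaches 1606 CPM per kb in TC and 979 in PC, while the CC and RC levels of CCN1 nearly coincide at 5.27 and 4.96.

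Among receptors of CCN proteins, ITGB3 and ITGB5 fell and ITGA6 rose in TC and PC. Of 8 listed receptor genes, 7 were tested. In TC, 4 were higher and 2 lower, where 33.2% of all genes tested were higher and 34.7% lower, and the median log2 fold change was 0.57 beside -0.02 over all genes. In PC, 3 were higher and 3 lower, where 33.2% of all genes were higher and 35.9% lower, with a median of -0.12 beside -0.04. ITGB3, an integrin beta chain that binds CCN1 and CCN2 with the alpha V chain, had a mean level of 958 CPM in CC, 176 in TC, 94.7 in PC and 963 in RC, with log2 fold changes of -2.44 ± 0.09 in TC (adjusted p = 4.2e-10) and -3.34 ± 0.09 in PC (adjusted p = 5.5e-11). ITGB5, another partner of alpha V, fell in TC (-2.86 ± 0.10, adjusted p = 3e-10) and in PC (-3.35 ± 0.10, adjusted p = 9.6e-11). ITGA6, an alpha chain that pairs with beta 1 and also binds laminin, rose by 2.16 ± 0.10 in TC (adjusted p = 3.2e-09) and by 2.73 ± 0.10 in PC (adjusted p = 6.1e-10), from a mean of 412 CPM in CC to 1844 and 2737.

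Neither YAP1 nor TEAD1 mRNA was called beyond 1.5-fold in any comparison. YAP1 (chr11:102110447-102233424, plus strand) was at 91.1, 83.6 and 108 CPM in the CC libraries, 111, 113 and 109 in the TC libraries, 98.5, 99.0 and 97.0 in the PC libraries and 102, 99.4 and 98.6 in the RC libraries. The TC libraries lay just above the highest CC library, and the PC and RC libraries lay inside the CC range. YAP1 was 1.18-fold higher in TC (0.24 ± 0.08, adjusted p = 0.015), which was lost in 3 of 18 alternative settings. It differed from CC by 0.06 ± 0.08 in PC (adjusted p = 0.5) and by 0.09 ± 0.08 in RC (adjusted p = 0.41). Both of these passed the threshold without CC replicate 3, at 0.18 (adjusted p = 0.0079) and 0.20 (adjusted p = 0.0084).

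TEAD1 (chr11:12674421-12944737, plus strand), a TEAD factor through which YAP binds DNA, was at 115, 103 and 135 CPM in the CC libraries, 103, 97.5 and 91.1 in the TC libraries, 123, 114 and 110 in the PC libraries and 146, 155 and 153 in the RC libraries. The TC and CC libraries overlapped at their edges, the PC libraries lay inside the CC range, and all RC libraries lay above all others. TEAD1 was lower in TC by -0.28 ± 0.09 (adjusted p = 0.017), a call lost in 3 of 18 alternative settings, such as that leaving out CC replicate 3 (-0.16, adjusted p = 0.068) or TC replicate 3 (-0.23, adjusted p = 0.068). In PC it differed from CC by -0.03 ± 0.09 (adjusted p = 0.82). In RC it was 1.28-fold higher than in CC (0.36 ± 0.09, adjusted p = 0.0088) and higher than in PC (0.39 ± 0.09, adjusted p = 0.0023), neither beyond 1.5-fold.

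Among the partners of YAP1 and TEAD1, a coactivator and a pair of cofactors changed beyond 1.5-fold in TC and PC. WWTR1, which encodes TAZ, was at 1344 ± 145 CPM in CC (SD, n = 3), 479 ± 51 in TC, 253 ± 9 in PC and 885 ± 36 in RC. It fell in TC (-1.49 ± 0.09, adjusted p = 2.8e-08) and in PC (-2.41 ± 0.09, adjusted p = 7e-10), and in RC it was still lower than in CC by -0.60 ± 0.09 (adjusted p = 0.00034, not beyond 1.5-fold). Per kilobase of exon, WWTR1 stood at 161 ± 17 CPM in CC and YAP1 at 14.9 ± 1.9, while in PC they stood at 30.3 ± 1.0 and 15.6 ± 0.2. VGLL3 and VGLL4, cofactors that bind TEAD proteins, rose. VGLL3 went from a mean of 0.889 CPM in CC to 5.06 in TC (2.50 ± 0.20, adjusted p = 3.1e-07) and 10.2 in PC (3.51 ± 0.21, adjusted p = 2e-08). VGLL4, which competes with YAP for TEAD, went from 36.2 to 175 in TC (2.27 ± 0.23, adjusted p = 2.4e-06) and 191 in PC (2.40 ± 0.23, adjusted p = 1.5e-06). Of the 8 coactivators, TEADs and cofactors beside YAP1 and TEAD1, 6 were tested, with 3 higher and 2 lower in TC, beside 33.2% and 34.7% of all genes, and the same counts in PC, beside 33.2% and 35.9%.

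The regulators that are also targets rose in both TC and PC and lay inside the CC range in RC. AMOTL2 (chr3:134355347-134375479, minus strand), an angiomotin family scaffold that binds YAP, was at 50.5, 44 and 62.3 CPM in the CC libraries, 147, 140 and 156 in the TC libraries, 190, 179 and 172 in the PC libraries and 45.5, 45.7 and 50.9 in the RC libraries. The 3 TC libraries lay above the CC libraries and below the PC libraries, and the RC libraries lay inside the CC range. AMOTL2 rose 2.82-fold in TC (SE 0.11 on the log2 scale, adjusted p = 1.4e-07) and 3.45-fold in PC (1.79 ± 0.11, adjusted p = 3e-08). PC differed from TC by 0.29 ± 0.11 (adjusted p = 0.067), and this passed the threshold in 5 of 18 alternative settings. RC was lower than PC by -1.93 ± 0.11 (adjusted p = 1.5e-08) and differed from CC by -0.14 ± 0.11 (adjusted p = 0.32).

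AJUBA (chr14:22971177-22982551, minus strand), a LIM protein that restrains LATS kinases, varied little between libraries of a group. It was at 10.7, 11.7 and 11.5 CPM in the CC libraries, 32.4, 33.8 and 33.4 in the TC libraries, 35.0, 33.1 and 31.5 in the PC libraries and 11.4, 11.3 and 11.4 in the RC libraries. The libraries formed a low pair of groups (CC and RC) and a high pair (TC and PC) with nothing between. AJUBA rose 2.94-fold in TC (1.55 ± 0.07, adjusted p = 2.3e-09) and 2.94-fold in PC (1.56 ± 0.07, adjusted p = 2.4e-09). The difference between PC and TC was 0.00 ± 0.07 (adjusted p = 0.99), and RC differed from CC by 0.01 ± 0.07 (adjusted p = 0.93).

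LATS2 (chr13:20973036-21061586, minus strand), the Hippo kinase that phosphorylates YAP, was at 39.2, 34.3 and 50.9 CPM in the CC libraries, 84.0, 80.9 and 86.1 in the TC libraries, 83.8, 77.8 and 73.0 in the PC libraries and 40.4, 39.7 and 40.2 in the RC libraries. Again TC and PC lay above CC without overlap, and RC lay inside the CC range. LATS2 rose 2.02-fold in TC (1.01 ± 0.11, adjusted p = 6.6e-06) and 1.89-fold in PC (0.91 ± 0.11, adjusted p = 1.5e-05). From PC to RC it fell by 0.96 ± 0.11 (adjusted p = 9.1e-06). CC replicate 3 was the highest CC library for CCN1, CCN2, AMOTL2, LATS2, TEAD1 and YAP1, and the rises of AMOTL2 and LATS2 in TC and PC were called with and without it.

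ANKRD1 (chr10:90912096-90921087, minus strand), a muscle ankyrin repeat protein and a standard YAP target in many cell types, was hardly detected, with 2 copies of GGAATG in its window. Its counts were 2, 4 and 11 in the CC libraries, 6, 1 and 3 in the TC libraries, 9, 9 and 6 in the PC libraries and 2, 7 and 1 in the RC libraries. In CPM the CC and TC libraries overlapped with those of every other group, while the lowest PC library (0.1388) lay just above the highest RC library (0.1246). It was below the filter and was not tested. The pooled level was 0.129 CPM in CC (95% exact interval 0.0750 to 0.206), 0.0761 in TC (0.0365 to 0.140), 0.188 in PC (0.121 to 0.280) and 0.0668 in RC (0.0320 to 0.123), intervals that cover counting error only. The ratio of PC to CC was 1.46 (0.753 to 2.90) and that of TC to CC 0.591 (0.242 to 1.37), so that neither differed from CC by more than the counting error. The ratio of PC to TC was 2.47 (1.14 to 5.79), whose interval lay above 1, although the libraries of these groups overlapped.

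Among the 8 genes of the set that were tested and counted (CCN4 was not counted and ANKRD1 not tested), 7 were called higher and 1 lower in TC, beside 33.2% and 34.7% of all genes tested. Beyond 1.5-fold, 5 were higher and 0 lower, beside 16.1% and 19.3%, and the median log2 fold change was 1.25 beside -0.02 over all genes. In PC, 5 were called higher and 0 lower, beside 33.2% and 35.9%, and the same 5 were beyond 1.5-fold, beside 17.2% and 19.9%, with a median of 1.24 beside -0.04. These 5 genes were CCN1, CCN3, AMOTL2, AJUBA and LATS2 in both comparisons. The TC and PC comparisons share the CC libraries. In RC, CCN3 and TEAD1 were called higher and 0 genes lower, beside 18.2% and 19.1%, and CCN3 was higher beyond 1.5-fold, beside 1.35%. Between PC and TC, CCN1 was called higher and CCN3 lower, beside 12.2% and 12.5%, and 0 genes were called beyond 1.5-fold in either direction, beside 2.33% and 1.15%. Between RC and PC, 1 gene was called higher and 6 lower, beside 35.7% and 34.2%, and 0 were higher and 5 lower beyond 1.5-fold, beside 20.2% and 18.5%. Libraries without overlap, described for single genes above, were found for 33.3% (higher) and 34.7% (lower) of all genes tested in TC against CC, 34% and 36.1% in PC against CC, 23.7% and 23.5% in RC against CC, 23.7% and 23.4% in PC against TC, and 40% and 38.6% in RC against PC. Since the set was chosen with results in view, nothing is read from these counts.

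**Figure D3:**
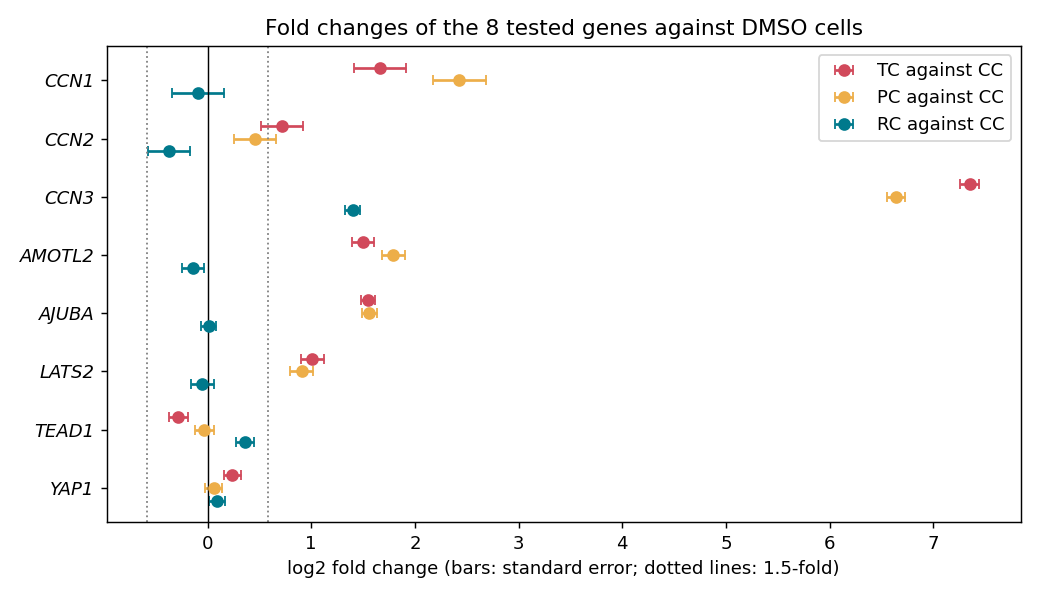
Log2 fold change against CC (horizontal axis) of the 8 tested genes (vertical axis) in TC, PC and RC, with bars for the standard error and dotted lines at 1.5-fold. TC and PC points of CCN1, CCN3, AMOTL2, AJUBA and LATS2 lie right of the upper line, and in RC only that of CCN3 does, at 1.40.

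A published YAP/TAZ target signature held 17 genes beside those above, of which 16 were tested. In TC, 5 were higher and 9 lower, beside 33.2% and 34.7% of all genes, with a median of -0.40 beside -0.02, and beyond 1.5-fold 3 were higher and 3 lower, shares near the 16.1% and 19.3% of all genes. In PC, 8 were higher and 6 lower, beside 33.2% and 35.9%, with a median of 0.15 beside -0.04, and beyond 1.5-fold 5 were higher and 4 lower, beside 17.2% and 19.9%. AXL, a receptor tyrosine kinase, was at 6.96 ± 0.59 CPM in CC (SD, n = 3), 37.9 ± 10.3 in TC, 112 ± 20 in PC and 15.6 ± 2.5 in RC. AXL rose by 2.45 ± 0.20 in TC (adjusted p = 4.3e-07) and 4.01 ± 0.21 in PC (adjusted p = 8.7e-09), and RC was still higher than CC by 1.16 ± 0.20 (adjusted p = 0.0009). NT5E, the ecto-nucleotidase CD73, fell from a mean of 63.3 CPM in CC to 4.68 in TC (-3.76 ± 0.09, adjusted p = 3e-11) and 4.84 in PC (-3.71 ± 0.09, adjusted p = 2.5e-11), and stood at 72.7 in RC. RBMS3, an RNA-binding protein, fell from 47.5 to 9.14 in TC (-2.37 ± 0.12, adjusted p = 4.2e-09) and 5.09 in PC (-3.22 ± 0.12, adjusted p = 5.6e-10), and was at 21.1 in RC (-1.17 ± 0.11, adjusted p = 2.8e-05).

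Of 21 listed Hippo regulators beside LATS2, AMOTL2 and AJUBA, 20 were tested. In TC, 10 were higher and 4 lower (33.2% and 34.7% of all genes), with a median of 0.21 beside -0.02. In PC, 9 were higher and 5 lower (33.2% and 35.9% of all genes), with a median of 0.14 beside -0.04. AMOTL1, a paralogue of AMOTL2, rose from a mean of 112 CPM in CC to 287 in TC (1.36 ± 0.13, adjusted p = 2e-06) and 285 in PC (1.35 ± 0.13, adjusted p = 2.1e-06). AMOT, the third angiomotin gene, was lower, at 48.1 CPM in CC, 30.4 in TC (-0.66 ± 0.06, adjusted p = 9.8e-07, not beyond 1.5-fold) and 24.4 in PC (-0.98 ± 0.06, adjusted p = 3.2e-08). FAT1, a large protocadherin upstream of the Hippo kinases, rose by 1.67 ± 0.12 in TC (adjusted p = 1.4e-07) and 0.93 ± 0.12 in PC (adjusted p = 1.9e-05). DCHS1, a ligand of FAT protocadherins, fell in TC (-2.11 ± 0.28, adjusted p = 2.4e-05) and in PC (-2.93 ± 0.29, adjusted p = 1.8e-06). It was also lower in RC by -2.12 ± 0.27 (adjusted p = 0.00015).

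**Figure D4:**
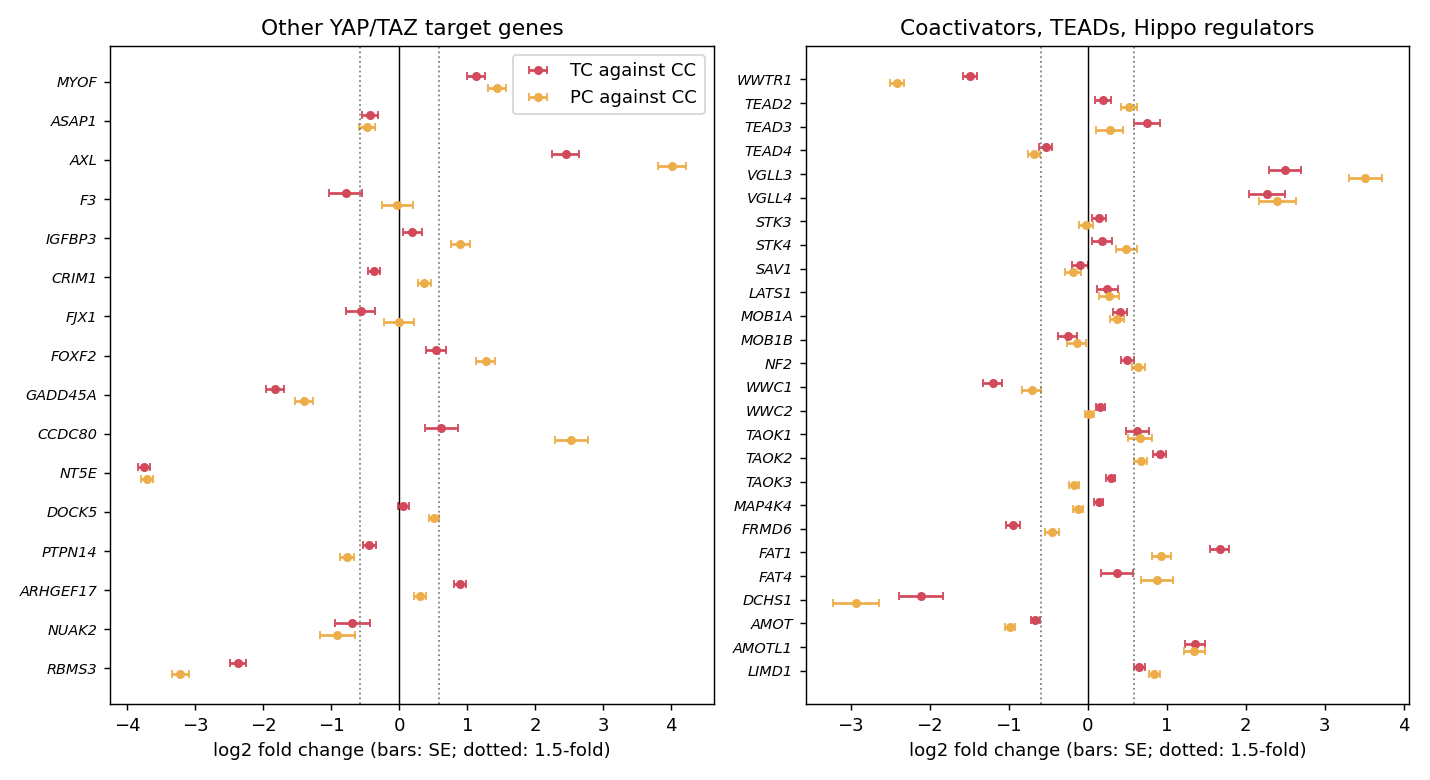
Log2 fold change against CC (horizontal axis) in TC and PC of the 16 other tested YAP/TAZ target genes (left) and of the 26 tested coactivators, TEADs, cofactors and Hippo regulators (right), with bars for the standard error and dotted lines at 1.5-fold. Points lie on both sides of 0 in both panels, from NT5E at -3.76 to AXL at 4.01 on the left.

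Targets of serum response factor and its MRTF coactivators, another set of genes that responds to the actin cytoskeleton, were tested for 9 of 10 genes. In TC, 4 were higher and 2 lower, beside 33.2% and 34.7% of all genes, and in PC 5 were higher and 3 lower, beside 33.2% and 35.9%, with medians of 0.39 and 0.65 beside -0.02 and -0.04. TPM1, a tropomyosin, rose from 36.6 CPM in CC to 107 in TC (1.54 ± 0.24, adjusted p = 9.7e-05) and 351 in PC (3.26 ± 0.25, adjusted p = 2.1e-07). TAGLN, an actin-binding protein of smooth muscle, differed by 0.73 ± 0.32 in TC (adjusted p = 0.059) and rose by 2.76 ± 0.32 in PC (adjusted p = 7.8e-06), while ACTA2, smooth muscle actin, fell in TC (-1.11 ± 0.27, adjusted p = 0.0029) and in PC (-1.63 ± 0.28, adjusted p = 0.0002). CNN1, a calponin, was at 0 in CC and at 0.459 CPM in TC and 0.754 in PC, at least 6.71-fold and 11.01-fold higher against the floor. CNN1, also at 0 in RC, passed the filter for testing only through TC and PC. It is among the genes counted as higher in TC and in PC, and these counts and medians take no account of this.

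The genes whose pattern was most like that of CCN1, CCN2 and CCN4 were sought among 11730 genes with a mean count of at least 100, by Pearson r of log2 CPM (prior count 2) over the 12 libraries. These libraries fall into 4 groups and all genes share them, so r is a description. SLC35D1 (r = 0.992), PCGF3 (0.989) and FHL2 (0.986) were most like CCN1. FHL2, a LIM-domain protein, had means of 32.6 CPM in CC, 59.0 in TC, 90.4 in PC and 33.9 in RC. EIF2AK3 (0.944), FRMD8 (0.938) and SLC41A2 (0.927) were most like CCN2, with EIF2AK3, a kinase of the unfolded protein response, at 32.0 CPM in CC, 45.4 in TC, 42.8 in PC and 31.1 in RC. MRAS (0.996), WDR1 (0.995) and CXCL14 (0.994) were most like CCN4. CXCL14, a chemokine, was at 0 in the CC and RC libraries and at 57.7 ± 65.9 CPM in TC and 22.01 ± 10.67 in PC (SD, n = 3). For ANKRD1 the highest r was 0.763, with FAM76B, DENND1B and LYSMD2 as the nearest genes, and at 1 to 11 counts per library that is no finding.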

How the data were processed

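A375 RNA-seq libraries (12, in 4 groups of 3) were analysed from raw counts per gene as deposited. Per the labels and the submitters' processing notes, the authors trimmed reads with fastp 0.20.1, aligned them with HISAT2 2.2.1 to GRCh38.p13 and counted them with HTSeq 0.13.5. The strand setting and the treatment of reads with several matches are not given in the sources used here, so overlapping genes and near-identical copies could share counts. Total counts per library ran from 37773389 to 55567097, and 3 counts correspond to 0.054 to 0.0794 CPM when scaled by these totals alone.

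The 10 genes and all lists were chosen with earlier results of these data known. Genes with a mean scaled count of at least 10 were kept (15916). The counts were fitted in edgeR 4.0.16 (R 4.3.3, limma 3.58.1) with TMM factors (0.965 to 1.02), 1 mean per group and all 12 libraries (8 residual degrees of freedom), using glmQLFTest (two-sided, adjusted p under 0.05) and glmTreat at 1.5-fold, and the script was tested on simulated counts. DESeq2 1.42.0 and other settings served as alternatives. Named genes of the other lists were the 3 with the largest change beyond 1.5-fold in TC and in PC. Length-scaled levels used the exon union of GENCODE v44. Standard errors of log2 fold changes were derived from the test, as the absolute log2 fold change over the square root of its F statistic. Fold bounds used a floor of 3 counts per library. No pair of libraries agreed within counting noise.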

Additional observations from a re-analysis of the deposited data

Results flagged for a closer look

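For CCN1 and CCN3, among the 8 genes tested and counted, the difference from the shared CC libraries differed between 72 h of MAPKi and the state after 2 further days without drug, by edgeR's test of PC with TC (adjusted p = 0.037 and 2.2e-05). CCN1 was higher in PC than in TC by 0.77 ± 0.24, and CCN3 lower by -0.71 ± 0.07. The direction held in 3 of 3 PC libraries against every TC library for both genes. Among all genes tested, 23.7% had every PC library above every TC library, and 23.4% had the reverse. Calls at an adjusted p under 0.05 were made for 12.2% (rise from TC to PC) and 12.5% (fall) of all genes. Among the 8 genes counted here, 1 rose and 1 fell. The CCN3 call was kept in all 18 alternative settings, with differences from -0.75 to -0.68, and the CCN1 call in 11 of 18.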

How the results depend on the processing

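The counts beyond 1.5-fold of the genes described here and of the other YAP/TAZ target genes were recomputed under 18 alternatives. So were log2 fold changes of the tested genes described here, without CCN4. Named genes of other lists, except CNN1, were recomputed only where called beyond 1.5-fold. For CCN4, the bounds were recomputed without single TC or PC libraries. Its mean levels in TC and PC were recomputed in that way too, and with library totals and relative log expression. Other list counts, markers, ANKRD1 ratios, likeness and promoter matches were not recomputed. The alternatives were library totals or relative log expression in place of TMM, a filter on a summed count of 2, and DESeq2. Others were a replicate block, only the 2 groups compared, and each library left out in turn. In all 18 alternatives, the counts of the genes described here beyond 1.5-fold stayed within 1.5 times their value. No setting turned the direction of a called gene that was recomputed. Of the other YAP/TAZ target genes, 1 was higher beyond 1.5-fold in RC than in CC, against 0 under DESeq2 and 0 to 1 with a library left out, and 5 were higher in RC than in PC, against 3 under DESeq2. The cause was not tested. Differences that were not called changed sign near 0. With a library left out, TEAD1 ran from -0.12 to 0.10 and YAP1 from -0.02 to 0.18 in PC against CC. In RC against CC, CCN1 ran from -0.25 to 0.18, AMOTL2 from -0.25 to 0.01, LATS2 from -0.17 to 0.13 and AJUBA from -0.03 to 0.04, and leaving out CC replicate 3 turned the sign of the first 3. In PC against TC, CCN2 ran from -0.42 to 0.01, where TC replicate 3 decided the sign, and AJUBA from -0.04 to 0.04. AJUBA in PC against TC was also at -0.01 with the summed count filter and at -0.00 with only the 2 groups. The CCN1 call between PC and TC was lost in 7 settings: without TC replicate 1 or 2, without each PC replicate (0.74 to 0.80), without RC replicate 3, and with only the 2 groups compared (0.76, adjusted p = 0.056). AMOTL2 in RC passed the threshold without CC replicate 2 (-0.25, adjusted p = 0.05).

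Same-numbered replicates correlated at 0.155, 0.068 and 0.124 between PC and TC and at -0.037 to 0.081 in the other comparisons. Different-numbered replicates correlated at -0.121 to 0.003 between PC and TC and at -0.067 to 0.042 in the other comparisons. Among CC, TC and PC, every same-numbered value lay above the different-numbered values of its comparison, but not in comparisons with RC. Whether the numbers pair the libraries was not settled, and the main fit did not pair them. With the replicate block, the CCN2 difference between PC and CC was 0.48 (adjusted p = 0.036) and the AMOTL2 difference between PC and TC 0.29 (adjusted p = 0.041), both then called. Depth limits ANKRD1 and CCN6, which had fewer than 12 counts in each library.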
